A study of Mus musculus with 6 samples.

Results

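Loss of Alox5 in BCR-ABL stem cells was examined by setting 2 arrays of Alox5-/- LSC against 2 arrays of LSC, out of 6 mouse arrays in all. LSC are leukaemia stem cells, the GFP-positive Lin-c-Kit+Sca-1+ marrow cells of mice with BCR-ABL disease. The comparison covered every probe set that had a value and exactly 1 gene symbol in the platform annotation, which was 21601 of 35557 probe sets and stood for 19934 genes. All samples carry the strain label C57BL/6 (B6) and an age of 8 weeks, and donors received 5-fluorouracil (5-FU) before marrow was taken. Marrow of wild-type (WT) or Alox5-/- donors was infected with a retrovirus for BCR-ABL and GFP, and was transplanted into B6 recipients. Both compared groups therefore carried BCR-ABL, and the host animals kept their Alox5 gene. Cells were sorted 14 days after transplantation. Another group of 2 arrays, HSC, held WT cells of the same gate without BCR-ABL, and it served for the spread and as a reference. The replicates are called biological in the labels, but how many animals went into each array is not given in the sources used here, so p-values measure the spread between these arrays.

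Alox5 encodes arachidonate 5-lipoxygenase, which acts with the membrane protein Alox5ap to turn arachidonic acid into leukotriene A4. Leukotriene A4 hydrolase makes leukotriene B4 from it, and leukotriene C4 synthase makes the cysteinyl leukotrienes. These lipids act through G protein-coupled receptors and are best known as attractants and activators of white blood cells. The question of the comparison, as far as the series states it, was which genes differ in LSC when Alox5 is missing.

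The deposited value is a score whose quantity, scale and direction are not given in the sources used here. It ran from 0.0143 to 46.2 over these probe sets, and array medians ran from 14.9 for Alox5-/- LSC replicate 2 to 17 for HSC replicate 2. Each array was centred on its own median, and every difference below is Alox5-/- LSC minus LSC in units of the centred score. A high score did not mark genes that every cell uses. The 46 probe sets of housekeeping genes, such as those of actin and translation factors, had median percentiles within an array of 11.2 to 21.1. The 179 probe sets of cytosolic ribosomal proteins, the building blocks of the ribosome, lay lower still, with medians of 4.58 to 6.76. By contrast, 46 genes of other tissues (liver albumin, eye crystallins, sperm protamines and the like) had medians of 47.5 to 61.6, and 1207 probe sets of olfactory and vomeronasal receptors had 41.4 to 54.7. The 57 probe sets of oxidative phosphorylation genes, also in wide use, overlapped these ranges at 34.2 to 51.6. With 1 probe set for each of the 55 ribosomal protein genes, medians were 66.7 to 84.1 by the set of highest mean and 0.63 to 0.861 by that of lowest mean. The 17 of these genes with a single probe set, which enter both, had medians of 18.7 to 72.8. Whether a higher score goes with more or less RNA is not settled, so no value below is a statement about expression.

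**Figure D1:**
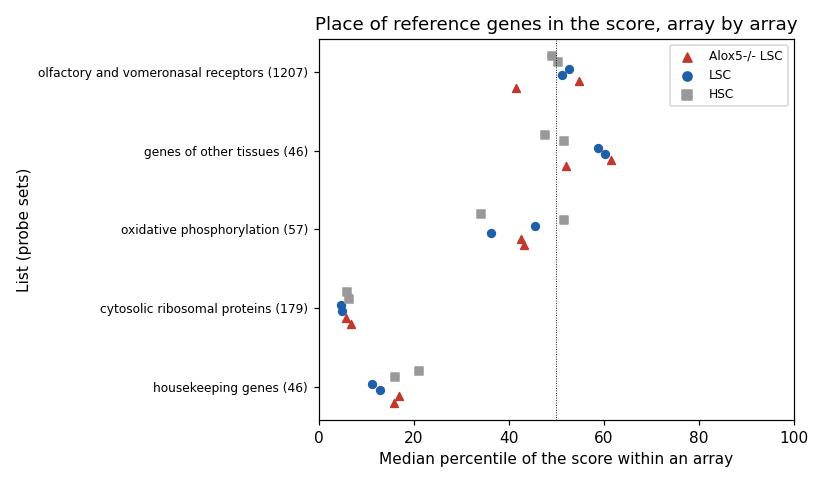
Median percentile of the score within each array (x axis, 0 to 100) for 5 reference lists (y axis, probe sets in parentheses), with 1 symbol per array and the dotted line at the 50th percentile. Probe sets of housekeeping genes (11.2 to 21.1) and of ribosomal proteins (4.58 to 6.76) lie far below those of genes of other tissues (47.5 to 61.6) on all 6 arrays. Those of oxidative phosphorylation (34.2 to 51.6) lie between, in a range that overlaps that of other tissues.

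A gene with 2 probe sets is read 2 times on each array, and the readings had little in common. Over 754 such genes, the mean scores of the first and the second probe set correlated at 0.0535 (Pearson) and 0.0457 (Spearman). Their differences between Alox5-/- LSC and LSC correlated at 0.0796 and 0.0944, and had the same sign for 408 genes (54.1%). These correlations run across genes that share the same arrays and are descriptions. Of 79 genes with at least 1 probe set at an unadjusted limma p under 0.05, 39 (49.4%) had the same sign in both. Both probe sets had such a p for 3 genes. Timm17a, part of the translocase that imports proteins into mitochondria, had lower scores in both, with differences of -6.35 and -7.87. Fdft1, squalene synthase, was higher in both at 6.65 and 7.96. Uevld was -5.55 by its first probe set and 6.36 by its second, so its probe sets ran in opposite directions.

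**Figure D2:**
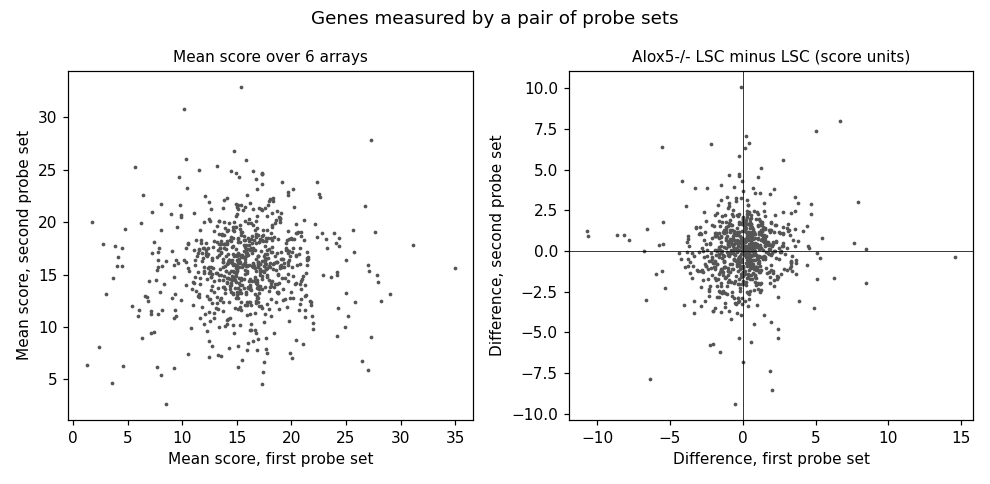
Genes measured by exactly 2 probe sets (754 points in each panel): left, the mean score over 6 arrays of the first probe set (x) against the second (y); right, the score difference Alox5-/- LSC minus LSC of the first (x) against the second (y). Both clouds are round, with Pearson correlations of 0.0535 on the left and 0.0796 on the right.

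No probe set differed between Alox5-/- LSC and LSC after correction. Limma called 0 of 21601 (0%) at a Benjamini-Hochberg adjusted p under 0.05, and the smallest adjusted p was 1.00. The smallest unadjusted limma p was 6.56e-05. At an unadjusted limma p under 0.05 there were 857 probe sets (3.97%), fewer than the 1080 that evenly spread p-values would give. Of these, 415 (1.92% of all) had a higher score and 442 (2.05%) a lower score in Alox5-/- LSC. The share with a lower score, 51.6%, was 75.6% when scores were left uncentred, where the median difference of all probe sets was -0.29, against 0.06 after centring. The median size of a difference between group means was 0.952 units, and the median SE from the fit was 1.34. Single arrays of a group lay a median of 1.48 units apart for Alox5-/- LSC and 1.29 for LSC. The groups did not overlap for 6833 probe sets (31.6%), with Alox5-/- LSC higher for 3590 (16.6%) and lower for 3243 (15%). The arrays of Alox5-/- LSC correlated with each other at 0.748 (Pearson, across probe sets, which are not replicates), while Alox5-/- LSC replicate 2 and LSC replicate 1 correlated at 0.805. The middle range of scores (25th to 75th percentile) was 4.70 units wide on Alox5-/- LSC replicate 1 and 3.98 on replicate 2. Without replicate 2 of Alox5-/- LSC the count at that p was 1439, with 35.6% of them lower.

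**Figure D3:**
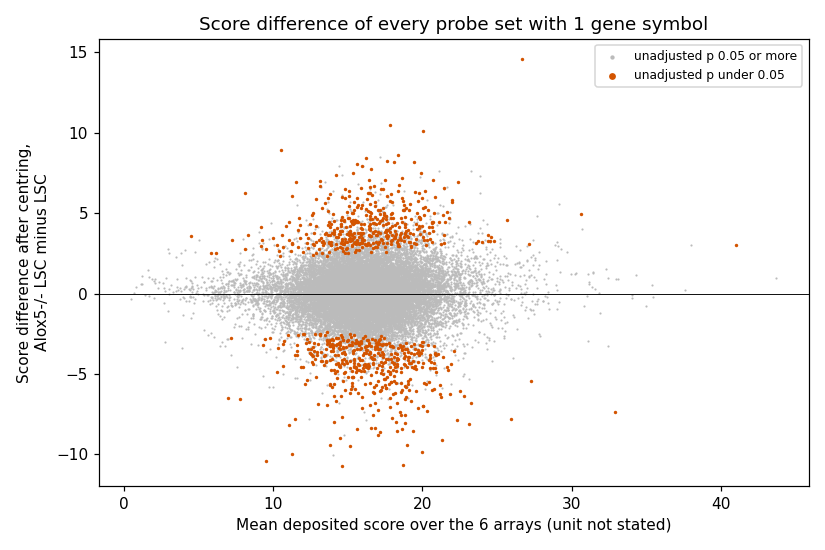
Score difference Alox5-/- LSC minus LSC after centring (y axis) against the mean deposited score over the 6 arrays (x axis), with 1 point for each of 21601 probe sets and orange points for the 857 at an unadjusted limma p under 0.05. The orange points lie above and below 0 in like numbers, 415 and 442, and none passed correction.

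The checks of identity that the arrays allow were of little use. Alox5 scored -1.96 and -1.37 on the Alox5-/- LSC arrays and -2.79 and -1.76 on the LSC arrays, so the groups overlapped. HSC arrays had -3.45 and 2.91. The difference was 0.61 ± 1.98 (SE; limma adjusted p = 1.00, n = 2 arrays a group). Where the probes lie relative to the disrupted exons was not examined, so the value checks neither genotype nor labels. Kit, the receptor used in the gate, scored -4.87 and -4.37 in Alox5-/- LSC and -4.85 and -1.45 in LSC, between the 7.2 and 30.9 percentiles of its array. Ptprc, the CD45 antigen of all blood cells, lay between the 2.8 and 9.7 percentiles of the same arrays. Ly6a, which encodes Sca-1, was not among the probe sets with 1 symbol and a value. Lineage lists had medians spread from the 27.2 to the 73.9 percentile on these 4 arrays, by the probe set of highest mean. Medians were 27.2 to 45.3 for granulocyte genes, 59.2 to 65.8 for macrophage genes and 56.7 to 73.9 for mast cell genes. The direction of the score is not settled, and the ranks of ribosomal protein genes changed with the probe set chosen. These ranks therefore do not show which cells were present.

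Among genes with higher scores in Alox5-/- LSC, the smallest p belonged to Snu13, a protein of the spliceosome and of small nucleolar RNPs. Snu13 scored -1.53 and -1.17 in Alox5-/- LSC, -9.31 and -11.29 in LSC, and -4.57 and -5.09 in HSC. The LSC arrays were low and all the others higher, for a difference of 8.95 ± 1.09 (SE; limma adjusted p = 1.00). The other 3 probe sets of Snu13 differed by 0.07, 1.95 and 0.30. Mlf1, myeloid leukaemia factor 1, stood at 8.06 and 5.96 against -1.66 and -1.54, with HSC between at 2.40 and 0.85. The ubiquitin ligase gene Rnf5, whose product sits in the endoplasmic reticulum membrane, stood at -0.84 and -1.0 against -7.31 and -6.86, and HSC lay above both at 1.52 and 1.15. Prdm9, the histone methyltransferase that places meiotic recombination, had 4.28 and 3.05 against -2.67 and -2.53. Gpatch8 also had LSC as the low group, at -5.74 and -4.48 against 1.39 and 0.24, but its 5 probe sets had a median difference of -0.03.

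Slirp, Slc25a51, Oxsm, Mon1b and Rab5b were also among the 15 genes of smallest p with a higher score. Slirp, which stabilises mitochondrial messenger RNA, scored 2.55 and -0.85 in Alox5-/- LSC against -6.73 and -4.90 in LSC. Slc25a51, the mitochondrial NAD carrier, scored 4.35 and 1.51 against -3.48 and -3.22. Oxsm, of mitochondrial fatty acid synthesis, scored 4.66 and 4.71 against 0.30 and -1.28. None of these 3 genes overlapped between groups, which follows from their choice by smallest p, and each adjusted p was 1.00. Of all probe sets, 31.6% did not overlap. Mon1b, part of the switch from early to late endosomes, had 2.90 and -0.11 against -5.15 and -6.04, with HSC like LSC at -4.11 and -4.96. The early endosome GTPase Rab5b had 4.31 and 3.25 against -1.78 and -7.55, and its other probe set ran the other way at -1.96. Also among the 15 genes of smallest p on this side were Cabcoco1 (6.06), Zfp420 (7.36), Mmgt1 (6.49) and Gpatch11 (6.92), and the largest p was 0.00412.

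The same 15 held 1 microRNA gene, Mir362, whose hairpin gives the mature products shown here to identify the member. Capitals mark the seed, bases 2 to 8 from the 5′ end, and the sequences are those of RefSeq on GRCm38.p6. The arms have different seeds.
mmu-miR-362-5p: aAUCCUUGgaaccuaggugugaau
mmu-miR-362-3p: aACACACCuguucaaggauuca
Mir362 scored 5.34 and 3.41 in Alox5-/- LSC, -0.02 and -1.53 in LSC, and -2.30 and -2.93 in HSC. The difference was 5.15 ± 1.24 (SE; limma adjusted p = 1.00), and the probe set does not tell the arms apart.

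Among genes with lower scores in Alox5-/- LSC, Vps72, a histone chaperone subunit of complexes that install the histone variant H2A.Z, had -8.62 and -5.05 against 0.53 and 1.37 in LSC. HSC stood with Alox5-/- LSC at -7.30 and -8.50. Kynu, the kynureninase of tryptophan breakdown, had -0.24 and 1.72 against 9.81 and 6.81, and HSC again lay low at -1.14 and -1.64. For both genes the LSC arrays were the ones that stood apart from the other 4. Differences were -7.79 ± 1.39 and -7.57 ± 1.46 (SE), and limma adjusted p was 1.00 for each. The LSC arrays enter both readings, LSC against Alox5-/- LSC and LSC against HSC, so the HSC values are no second test.

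Samd9l, Il18 and Rag2 were also among the 15 genes of smallest p on this side. Samd9l, an interferon-inducible restriction factor, scored -4.24 and -5.88 in Alox5-/- LSC against 2.79 and 6.04 in LSC. The cytokine gene Il18 scored -2.66 and -4.53 against 3.10 and 2.09, with HSC between. Rag2, of the recombinase that joins antigen receptor segments, scored -2.90 and 0.89 against 10.79 and 6.91, and the HSC arrays held 2.04 and 5.71. Rag2 had the largest difference of these 15 genes, at -9.86 ± 2.06 (SE; limma adjusted p = 1.00).

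Tet1, which oxidises methylated cytosine, had a lower score, at -3.82 and -6.22 against 1.39 and 4.61. The other 2 Tet1 probe sets went the other way, at 1.78 and 3.84. Lemd3, a protein of the inner nuclear membrane, had 2.36 and 1.30 against 7.23 and 8.33, and Tut1, which adds uridines to U6 RNA, had 1.78 and 2.58 against 8.55 and 7.80. For Lemd3 and Tut1 the HSC arrays lay between the groups. Timm17a had -4.48 and -5.41 against 2.24 and 0.58 by its probe set of smaller p. Rpl21, of the large ribosomal subunit, differed by -6.50 at 1 probe set, while its other 7 probe sets ran from 0.17 to 3.64. Cspp1 (-7.09), a spindle and centrosome protein, had 14 probe sets of which 7 were above 0 and 7 below. The rest were Zfp944 (-8.09), Tns1 (-6.82), a focal adhesion protein, Ndst2 (-6.05), a heparan sulfate modifying enzyme, and Ankrd33b (-5.57).

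**Figure D4:**
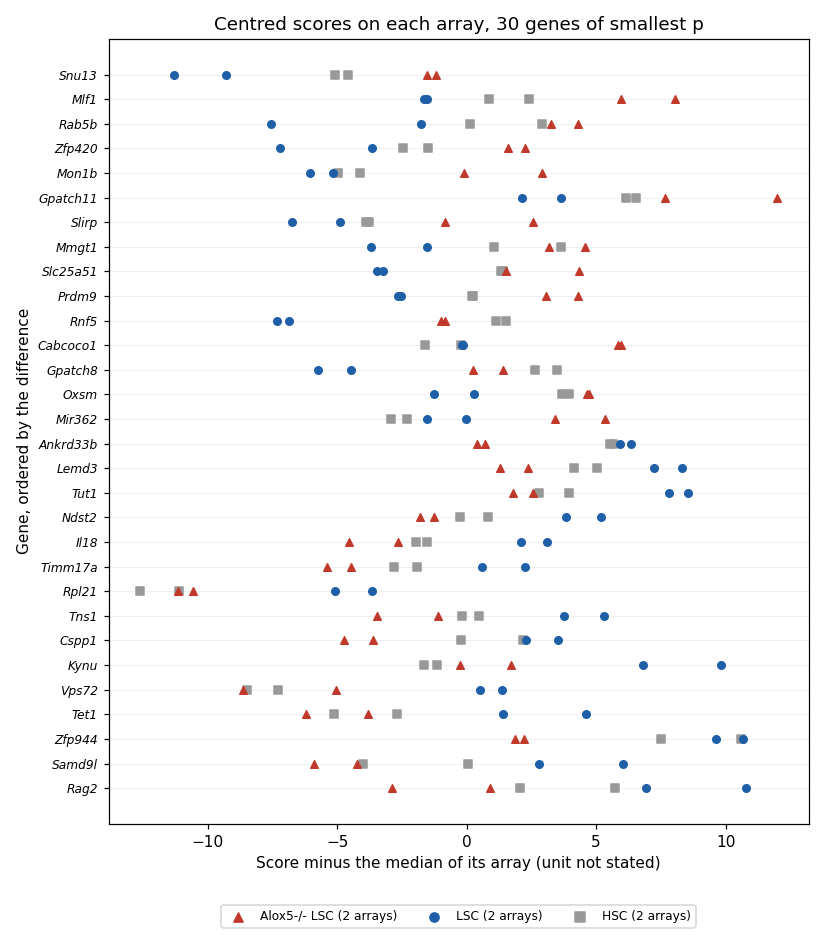
Score minus the median of its array (x axis) on each of the 6 arrays for the 15 genes of smallest limma p in each direction (y axis, ordered by the difference), with triangles for Alox5-/- LSC, circles for LSC and squares for HSC. The triangles and circles of a gene do not overlap, which follows from how the genes were chosen; HSC lies beside Alox5-/- LSC for Vps72 (-7.30 and -8.50) and beside LSC for Mon1b (-4.11 and -4.96).

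The widest gaps between the nearest arrays of the groups gave 16 genes, of which 7 were already among the above. Snord53, a small nucleolar RNA gene, had the widest, 8.41 units: it scored -10.04 and -9.95 in Alox5-/- LSC and -1.54 and 1.49 in LSC. The HSC arrays held -8.20 and -0.21 for it, so that group alone spanned nearly the whole gap. Chd7, a chromatin remodeller, scored -1.0 and -5.12 against 6.31 and 6.41. Over the 30 probe sets of Chd7, 21 were below 0 and 9 above, with a median of -1.13. At an unadjusted limma p under 0.05, 3 of them had a lower and 1 a higher score. Of all probe sets, 2.05% were lower and 1.92% higher at that p. On the higher side were Ctso (7.51), cathepsin O, the histone H3 gene H3c4 (7.19) and Otulinl (10.51). Otulinl rested on a wide spread, with 9.92 and 0.64 in Alox5-/- LSC against -5.26 and -5.21. Efcab11 (-7.40) and Mbip (-8.43) were on the lower side, and all had limma adjusted p of 1.00.

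Leukotriene genes, the pathway of the missing enzyme, did not separate the groups. Of 20 measured genes 11 were above 0, and 0 had an unadjusted p under 0.05 (3.97% over all probe sets). Their median was 0.22 after centring and -0.12 as deposited, beside 0.06 and -0.29 for all probe sets. Among the synthesis genes, Alox5ap, the partner that presents arachidonate, scored 0.14 and 0.27 in Alox5-/- LSC and -0.22 and 1.27 in LSC. Lta4h, the hydrolase of the B4 branch, scored 2.39 and -0.47 against 0.78 and 0.37. Ltc4s, the synthase of the cysteinyl branch, scored -3.38 and -4.97 against -5.91 and -5.33. Pla2g4a, the phospholipase that releases arachidonate, had 4.62 and 7.37 against 8.44 and 4.54. Of these 4 Ltc4s did not overlap, by 0.36 units, which is less than the spread within either group. Over the list 5 genes did not overlap, 2 higher and 3 lower, beside 31.6% of all probe sets.

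Among the receptors, Cysltr1, which binds cysteinyl leukotrienes, scored -0.83 and -0.15 in Alox5-/- LSC against 2.37 and 1.79 in LSC, for a difference of -2.57 ± 2.23 (SE). Cysltr2 differed by -3.96 ± 2.58, but its Alox5-/- LSC arrays stood far apart at -0.79 and 6.53, and the second of these lay within the LSC values of 7.51 and 6.16. The leukotriene B4 receptor Ltb4r1 scored 0.32 and 4.67 against 1.87 and 1.48 and overlapped. Further differences were 1.61 for Cmklr1, a resolvin receptor, 0.81 for Gpr17 and 0.35 for Oxgr1. The 6 other lipoxygenase genes had values from -1.15 (Alox8) to 1.32 (Alox15), and 3 were above 0. In the cyclooxygenase branch, 15 of 20 genes were above 0 with a median of 0.86 (-0.03 without LSC replicate 2), and the prostaglandin E receptor Ptger3 had a lower score at an unadjusted p under 0.05, -3.29.

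Genes that the same laboratory followed in this disease model were read as a list chosen for that interest, which is not independent evidence. Of 16 measured genes, 11 were above 0, 1 had a higher and 1 a lower score at an unadjusted limma p under 0.05. That was 12.5% of the list, beside 3.97% of all probe sets. Akt1, a kinase downstream of PI3K, was the lower, at -2.96 and -0.23 in Alox5-/- LSC against 4.89 and 1.60 in LSC (-4.84 ± 1.55, SE). Pax5, the B lineage transcription factor, was the higher, at -0.01 and -0.44 against -5.03 and -2.40 (3.49 ± 1.22). Foxo3, which keeps stem cells quiescent, scored 5.95 and 7.09 against 4.09 and 4.31, without overlap. Over the list 3 genes were higher and 3 lower without overlap, beside 31.6% of all probe sets. Cdkn1b, the p27 cell cycle inhibitor, scored 0.03 and 0.49 against 2.43 and 1.58, while its other probe set differed by 0.045. Msr1, a scavenger receptor, overlapped because Alox5-/- LSC replicate 1 was high at 5.53 and replicate 2 was -0.19, within the LSC values of 0.24 and -1.31. Ctnnb1, Blk, Scd1, Hif1a and Gsk3b overlapped between groups as well, with differences of 1.29, 0.08, 0.16, 0.88 and 0.57.

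Over the 44 gene lists, 996 distinct genes were measured with 1 probe set each, and 59 (5.92%) had an unadjusted limma p under 0.05, beside 3.97% of all probe sets. Of these, 29 were higher and 30 lower, and none passed correction. The lists were chosen with earlier results of these data known, and several were built around genes already seen to differ, so this share is not evidence that the lists differ from other genes. A list median is given beside the 0.06 of all probe sets, and 51.6% of all probe sets were above 0. Left uncentred, 18 of the 44 medians differed in sign. That count holds the stem cell and mast cell lists, whose medians were 0.00 after centring and -0.35 as deposited.

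**Figure D5:**
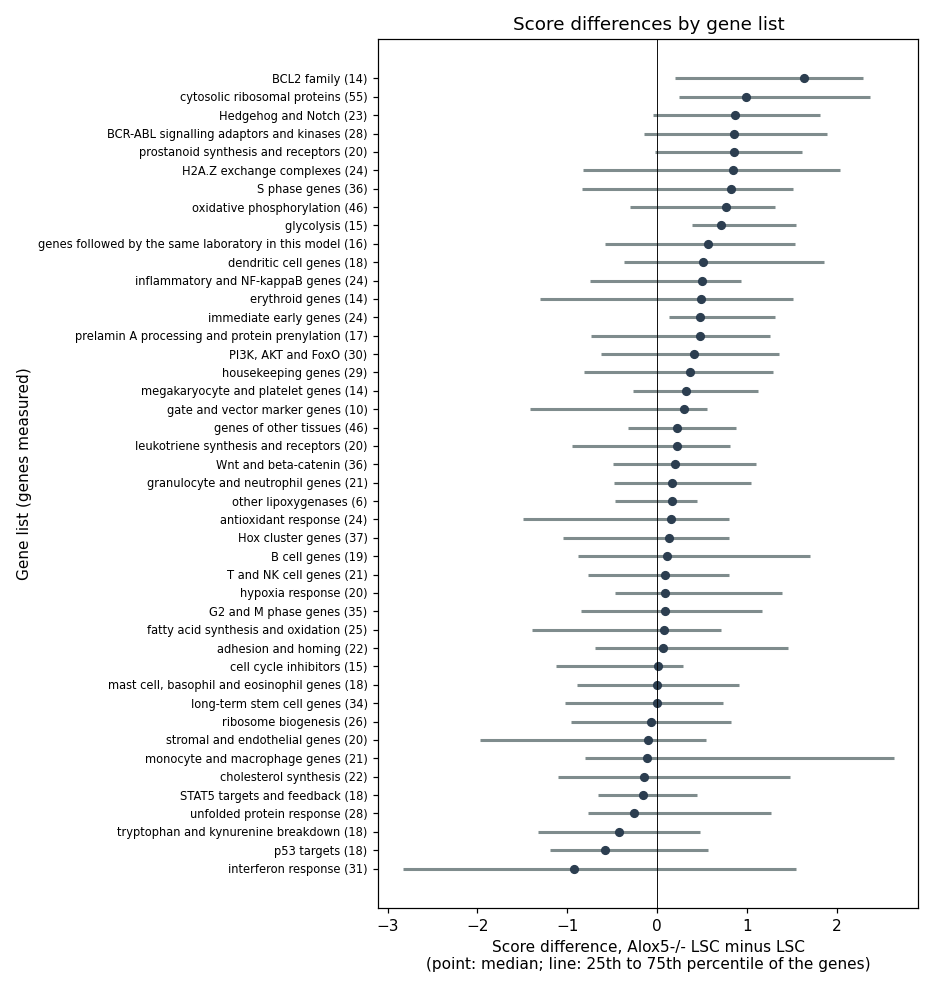
Median score difference Alox5-/- LSC minus LSC after centring (points) and 25th to 75th percentile of the genes (lines) for 44 gene lists, with the genes measured in parentheses and a vertical line at 0. The medians run from -0.93 for interferon response genes to 1.64 for the BCL2 family, and most lines cross 0. As deposited these 2 medians were -1.28 and 1.29, while 18 of the 44 medians differed in sign, counting those at 0.00 after centring.

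Survival genes of the BCL2 family had the highest list median, 1.64, with 11 of 14 genes above 0. The median ran from 1.03, without Alox5-/- LSC replicate 2, to 2.17 when any 1 array of the compared groups was left out, and was 1.29 as deposited. Pmaip1, the death-promoting NOXA, scored 6.76 and 1.73 in Alox5-/- LSC against -0.50 and -1.70 in LSC. Bcl2l1, the anti-apoptotic BCL-X gene, ran the other way at -0.09 and 2.75 against 8.01 and 3.78. These 2 (14.3% of the list, beside 3.97% of all probe sets) were the members at an unadjusted limma p under 0.05, with differences of 5.34 and -4.56. The members thus did not divide by role: pro-death Hrk (2.77), Bad (2.68) and Bmf (2.33) and anti-death Bcl2 (2.20) and Bcl2l2 (2.03) were all positive, and anti-death Mcl1 was -1.51.

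For ribosomal protein genes the list median was 0.99, with 47 of 55 above 0 by the probe set of highest mean per gene. Over all their 179 probe sets, 132 (73.7%) were above 0 with a median of 0.52, and by the probe set of lowest mean the median was 0.35. The 3 at an unadjusted limma p under 0.05 (5.45% of the list, beside 3.97% of all probe sets) were Rpl5 (3.03), Rpl12 (4.23) and Rps19 (3.27). Rpl5 scored 27.18 and 25.75 against 23.00 and 23.86, at the very top of the arrays, and its difference was 0.00 after quantile normalization. Rpl12 scored 2.39 and 1.82 against -2.75 and -1.50. With all probe sets divided into 10 classes by mean score, the class of highest score also had a positive median, 0.25, where the other classes had 0.01 to 0.07, and the part of this in the ribosomal values was not tested. Ribosome biogenesis genes had a median of -0.07, with 11 of 26 above 0 and Ubtf, a factor of ribosomal RNA transcription, at -3.10.

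Interferon response genes had the lowest list median by 1 probe set per gene, -0.93. At an unadjusted limma p under 0.05 were 7 of 31 genes (22.6%), beside 3.97% of all probe sets. No other list had as many, though the lists differ in size. Beside Samd9l these included the cytosolic RNA sensors Ddx58 (RIG-I) and Ifih1 (MDA5), both lower. Ddx58 scored -2.54 and -2.26 in Alox5-/- LSC against 1.85 and 0.90 in LSC, with HSC at -3.65 and -1.80. Ifih1 scored -3.02 and -1.82 against 3.67 and 0.62. The related sensor Dhx58 (LGP2) ran the other way at 2.19 and 0.33 against -3.25 and -3.23. Rtp4 (-4.94) and Ifi35 (-4.06) were lower too, and Oas3 (3.09), a synthetase of the signal for RNase L, was higher. The list was thus mixed, with 15 of 31 genes above 0, and its median was 0.02 percentile points by rank. By 1 probe set per gene the median was -0.06 without LSC replicate 1. Over all 32 probe sets the median was -0.31, higher than that of p53 targets (-0.58). The list was composed with Samd9l known to differ.

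In the list of cholesterol synthesis, 3 of 22 genes (13.6%) had an unadjusted limma p under 0.05, beside 3.97% of all probe sets. Idi1, which interconverts isopentenyl and dimethylallyl diphosphate, scored 28.46 and 12.29 in Alox5-/- LSC against 5.21 and 6.38 in LSC and 5.90 and 5.70 in HSC. Both Alox5-/- LSC arrays stood above the other 4 for Idi1, with replicate 1 far above replicate 2; without replicate 1 the difference was 6.50, and the other probe set of Idi1 differed by -0.38. Mvd, the decarboxylase just before Idi1 in the pathway, scored -2.07 and -1.26 against 5.35 and 6.76. Fdft1, further along the pathway, scored 6.32 and 2.99 against -3.30 and -0.68 by its probe set of higher mean. Of 22 genes of cholesterol synthesis 11 were above 0, with a median of -0.14. That median was -1.46 without Alox5-/- LSC replicate 1 and 1.20 without replicate 2. Zmpste24, the protease that trims farnesylated prelamin A, scored -5.08 and -3.19 against 2.37 and 0.90, while its probe set of lowest mean differed by 0.37. Fatty acid genes had 13 of 25 above 0 and a median of 0.08 (-0.27 as deposited), with Acly, which makes cytosolic acetyl-CoA, at -4.34.

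Genes of BCR-ABL signalling had 20 of 28 members above 0 and a median of 0.86, which was -0.41 without Alox5-/- LSC replicate 1 and 1.99 without replicate 2. Nras, a small GTPase, scored 5.94 and 3.81 against 1.60 and 1.80, and Akt1 was the lower member at an unadjusted p under 0.05 (-4.84). The list of PI3K, AKT and FoxO genes, which also holds Akt1, had 17 of 30 above 0 and a median of 0.41 (-0.33 without Alox5-/- LSC replicate 1). In it, Pik3cg, the PI3K catalytic subunit downstream of G protein-coupled receptors, scored -2.53 and -2.89 against 1.03 and 3.87, with HSC at -2.31 and -1.89. Ccng2, a cyclin induced by FoxO factors, was 4.38 higher. STAT5 targets had 9 of 18 above 0. The D-type cyclin genes Ccnd1 (3.73) and Ccnd3 (3.46) were higher without overlap, Ccnd2 (0.44) overlapped, and Bcl2l1 (-4.56) was lower without overlap. In the STAT5 list 3 genes were higher and 3 lower without overlap, beside 31.6% of all probe sets. Of 36 Wnt genes 19 were above 0, with a median of 0.20 that was -0.15 as deposited, and the receptor gene Fzd3 was at -5.53. Hedgehog and Notch genes had a median of 0.87 and 15 of 23 above 0, with 0 at an unadjusted p under 0.05.

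Cell cycle lists were split. S phase genes had 24 of 36 above 0 and a median of 0.82 (0.32 when LSC replicate 1 was left out, 0.37 when Alox5-/- LSC replicate 1 was), without a member at an unadjusted p under 0.05. Among 35 G2 and M phase genes, 19 were above 0 with a median of 0.09 (-0.26 as deposited). Ccna2, cyclin A2, scored 2.63 and 4.88 against -0.06 and 0.09, whereas the mitotic kinase Aurka scored -4.12 and -5.55 against -1.21 and -2.12. Birc5, survivin, was at -3.77. Of metabolic lists, oxidative phosphorylation had 33 of 46 genes above 0 (median 0.77, and 0.19 without Alox5-/- LSC replicate 2) and glycolysis 12 of 15 (median 0.71, and 0.30 without LSC replicate 2), with Ndufa8 of complex I at 4.23. Over all probe sets of the oxidative phosphorylation genes the median was 0.41.

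Stem cell genes had 17 of 34 members above 0 and a median of 0.00. Esam, an adhesion molecule of blood stem cells, scored 6.14 and 3.19 in Alox5-/- LSC against -0.38 and -1.70 in LSC. Gfi1, a repressor that restrains stem cell division, scored 5.28 and 6.92 against 2.88 and 3.25, while Ctnnal1 scored -1.44 and -1.72 against 3.91 and 8.94. HSC arrays held -1.83 and 5.16 for Ctnnal1, as wide apart as the groups. The stem and progenitor surface genes overlapped between groups for Kit, Cd34, Slamf1, Cd48 and Flt3, with differences of -1.46, 0.31, -1.52, 0.59 and 0.50. Il7r (-3.32), Fcgr2b (0.97) and Fcgr3 (0.29) of the same gate list overlapped too. Cd27 (-1.25) and Ptprc (2.10) did not. That was 1 lower and 1 higher gene of 10 measured, beside 31.6% of all probe sets without overlap. Hox genes had 19 of 37 above 0, with Hoxa5 (-4.00) and Hoxb2 (-3.26) lower. Adhesion and homing genes had 12 of 22 above 0, with higher scores for the integrin chain Itgb2 (6.36) and the selectin ligand Selplg (3.13).

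Lineage lists had no common direction. Of 21 monocyte and macrophage genes, 9 were above 0 with a median of -0.11, which was 2.09 percentile points by rank and positive without any 1 of the 4 compared arrays (0.16 to 0.89); Cd5l (5.32), C1qb (3.74) and Cx3cr1 (3.63) were higher at an unadjusted p under 0.05. For granulocyte genes 12 of 21 were above 0, and Lcn2 (-4.35), lipocalin of neutrophil granules, and Ly6g (-3.42) were lower. In the B cell list 11 of 19 were above 0, with Pax5 higher and Rag2 and the adaptor Blnk (-2.74) lower. Single members at that p were Klrb1c (-3.03) of T and NK cells, Mrgprb2 (-3.17) of mast cells, Pf4 (-3.55) of platelets and Rhag (-8.34) of erythroid cells. Rhag scored -4.15 and 2.37 against 9.71 and 5.20, with HSC at -4.48 and -3.76. Dendritic cell and stromal genes had 0 at that p, with 12 of 18 and 10 of 20 above 0. In sorted bulk samples the number of cells of a type and the RNA per cell cannot be told apart, whichever way the score runs.

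Lists were also read around some of the top genes. Of 24 genes of H2A.Z exchange complexes 17 were above 0, with a median of 0.85 (0.28 without Alox5-/- LSC replicate 1), and Vps72 was at -7.79. H2az2, an H2A.Z gene itself, was higher (2.83), while H2az1, also an H2A.Z gene, differed by 0.44 and 0.26 at its probe sets. Vps72 and H2az2 were the members at an unadjusted limma p under 0.05 (8.33% of the list, beside 3.97% of all probe sets). The acetyltransferase Kat5 of the TIP60 complex stood at 4.15 and was not among them. Tryptophan breakdown genes had 8 of 18 above 0 and a median of -0.42, which was negative in every setting on the score scale (-0.01 without Alox5-/- LSC replicate 2), with Kyat3, a kynurenine aminotransferase, at -4.14 beside Kynu. Unfolded protein response genes had 11 of 28 above 0, with the chaperone gene Dnajb9 at 5.02 beside Rnf5. Immediate early genes, which respond quickly to stimulation, had 19 of 24 above 0 with a median of 0.48, and Klf6 (4.64) was the member at an unadjusted p under 0.05. Of p53 targets 6 of 18 were above 0, and of inflammatory genes 16 of 24, with Myd88 (4.43), an adaptor of Toll-like receptors. Gsta4 (3.90), a glutathione transferase, was the antioxidant gene at that p, and Mbp (3.57) was the gene of other tissues, a myelin component. By 1 probe set per gene, hypoxia genes (12 of 20 above 0), cell cycle inhibitors (8 of 15) and housekeeping genes (20 of 29) had no member at that p. Over all 46 housekeeping probe sets 2 were higher at that p, beside 1.92% of all probe sets. Each limma adjusted p in these lists was 1.00.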

How the data were processed

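The series gave 6 Affymetrix whole-transcript arrays in 3 groups of 2, grouped by title. For each array the deposited values are scores, 1 for each probe set. Expression Console 1.1 (Affymetrix) and RMA are named as tools, per the submitters' processing notes. The unit of the score, the genome build and any filter are not given in the sources used here. Of 35557 probe sets, 1058 were empty. Of the 34499 with a value, 1265 had several symbols and 11633 were not listed with a symbol, and both kinds were left out. The score was centred on each array's median over the 21601 probe sets kept. Limma 3.58.1 in R 4.3.3 fitted a mean per group over all 6 arrays (3 residual degrees of freedom, prior variance following the mean score), two-sided, with Benjamini-Hochberg adjustment over all 21601. The fit was checked on simulated data. For gene lists the probe set of highest mean per gene was used.

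Named genes were the 15 of smallest p and the 8 of widest gap between groups in each direction, without unnamed gene models. To these came all measured genes of the leukotriene, lipoxygenase, laboratory and gate lists, part of which are given by range, and the members of other lists at an unadjusted p under 0.05. A few genes outside these rules, such as Kat5, Ccnd2, Uevld, H2az1 and other BCL2 family members, were named to describe their lists or probe set pairs. The members and lists were chosen with earlier results of these data known. The number of arrays limits the precision. An SE comes from the limma fit. Alternatives were other scalings, fits, filters and probe set choices, and leaving out each array.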

Additional observations from a re-analysis of the deposited data

How the results depend on the processing

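In every setting run, limma called 0 probe sets at an adjusted p under 0.05; the lowest adjusted p, 0.155, came without Alox5-/- LSC replicate 2. Counts at an unadjusted p under 0.05 ran from 714 to 1439 when 1 array was left out, the highest without that same array, and from 584 (description number as a covariate) to 952 (percentile ranks) otherwise. With the replicate number as a block the count was 841. The labels do not say whether same-numbered arrays belong together. Deviations of same-numbered Alox5-/- LSC and LSC arrays correlated at -0.0548, which with 2 arrays a group cannot settle it. Non-overlap held for 63.1% to 70.4% of probe sets when a compared array was left out, since 3 arrays overlap less often than 4; the fits that change only the model give no such value. Of 92 genes read from the fit, 15 of 1547 alternative values changed sign. With the probe set of highest mean these were Gpatch8 (-2.55), Rpl21 (1.24), Cspp1 (1.04), Tns1 (0.40) and Tet1 (3.84). With that of lowest mean they were Gpatch8 (-0.03), Rab5b (-1.96), Rpl21 (2.18), Tet1 (1.78), Ankrd33b (0.90), Idi1 (-0.38), Chd7 (0.15), Rpl5 (-0.27) and Zmpste24 (0.37). Rpl5 was 0.00 after quantile normalization. These settings replace the probe set and show no cause beyond that. Of 44 list medians, 13 kept their sign in every setting on the score scale. When some array was left out, 30 differed in sign, counting those at 0.00 in the main setting.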

Other observations

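Of the probe sets outside the comparison, 12898 had a value but no single symbol. Fitted on their own by limma, 0 passed an adjusted p under 0.05, 552 (4.28%) had an unadjusted p under 0.05, and the smallest adjusted p was 0.293.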
